A study of Mus musculus with 165 samples.

Results

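The brain and the liver of the same 28-month-old mice were compared gene by gene. All brain libraries of that age were taken and each was set against the liver library carrying the same mouse name, which gave 18 mice and 36 of the 165 libraries of the series. The mice were males of the inbred strain C57BL/6J/Ukj, kept for ageing without treatment, and no genetic change was labelled. RNA enriched for poly(A) tails was sequenced from each organ in bulk as stranded TruSeq libraries with paired reads, in preparation 1 (7 mice), 2 (5 mice) or 3 (6 mice), the batches named in the labels. A further 15 mice of 3 months with both organs, of the same sex and strain, served to ask whether the difference between the organs had the same size in young adults.

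The brain consists of neurons, which signal to each other through synaptic vesicles and neurotransmitter receptors, and of glia: astrocytes, the myelin-forming oligodendrocytes and microglia, the resident macrophages. Most liver RNA comes from hepatocytes, which secrete the proteins of blood plasma, make bile acids and urea, release glucose into the blood and break down foreign compounds. Many housekeeping steps run on related enzymes encoded by separate genes, one of which is used mainly in hepatocytes. In bulk RNA, fewer cells of a type and less RNA per cell cannot be told apart.

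Total counts ran from 11.46 to 54.99 M reads in the brain libraries and from 25.8 to 44.45 M reads in the liver libraries. The 10 most abundant genes of a library held 5.09% to 12.5% of brain counts and 15.6% to 21.5% of liver counts. Levels below are in CPM, counts per 1 M reads of the library size after TMM scaling, unless given per kilobase (kb) of exon, and a library with 3 counts or fewer of a gene is taken to be at the floor. The p-values measure the spread between these mice. No pair of libraries from one organ was alike within counting noise (the closest pair differed by 8.15 times the variance of counting in brain and 42.4 times in liver, over 153 pairs each).

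The 2 marker genes followed the labels in every mouse. Snap25, the synaptic vesicle fusion protein of neurons (2:136713453-136782428, GRCm38), had 696, 1585 and 1882 CPM as the lowest, median and highest brain value. In liver its median was 0 and its highest value 59.7 CPM. Alb, the main protein of blood plasma (5:90460897-90476602), had 20739, 109675 and 140304 CPM in liver against a median of 0.0277 and a highest value of 13 CPM in brain. No brain value of either gene overlapped a liver value.

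Libraries from 2 mice stood apart within their organ, and results below whose calls or values rest on them are also given without them. In the brain library of mouse 15, the shallowest of the 36, 360 genes were at least 5-fold above the next highest brain. Its levels relative to the other brains fell with exon length: the median log2 ratio was 0.78 among genes with the shortest exon sequence, 0.02 and -0.37 in the next bands of length and -0.89 among the longest of these 4 bands of equal size, where other brains lay within -0.07 and 0.13. The first principal component, which separated this library from the rest, held 67.3% of the variance of the brain libraries, and without it 18.5%.

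The liver library of mouse 14 held 207 genes at least 5-fold above the next highest liver, 180 of them with a median of 1 CPM or more in brain. No other liver had more than 8 such genes. The genes given here were chosen after their values were seen. The acute-phase genes Saa1 and Saa2 had the highest levels of the set, at 14076 and 13034 CPM against at most 1706 and 1128 CPM in the other livers. Chga, chromogranin A of secretory granules, came next with 4006 CPM there against at most 0.153 CPM in the other livers and 65.4, 84.8 and 218 CPM (lowest, median, highest) in brain. Chgb, chromogranin B, had 483 CPM in this liver, and Pcsk1, a convertase that cuts prohormones in granules, had 377 CPM against a brain median of 21.7 CPM. Hdc, which makes histamine, had 315 CPM against a brain maximum of 2.4 CPM.

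Genes of neurons did not all move in that liver. Of the 24 genes of the neuronal and synaptic list, 5 were at least 5-fold above the next liver and 5 were at the floor, and their sum was 262 CPM against 89.9 to 120 CPM in the other livers and a brain median of 13750 CPM. The summed myelin list (84.9 CPM) lay within the 63.2 to 124 CPM of the other livers, and so did the summed astrocyte list (3922 CPM, others 2916 to 4445 CPM). The summed plasma protein list was below all others, at 172129 CPM against 234107 to 351467 CPM. The plot of single libraries shows that the granule genes and Snap25 left the floor in this liver while Slc17a7, Gabra2 and Mobp stayed at it.

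**Figure D1:**
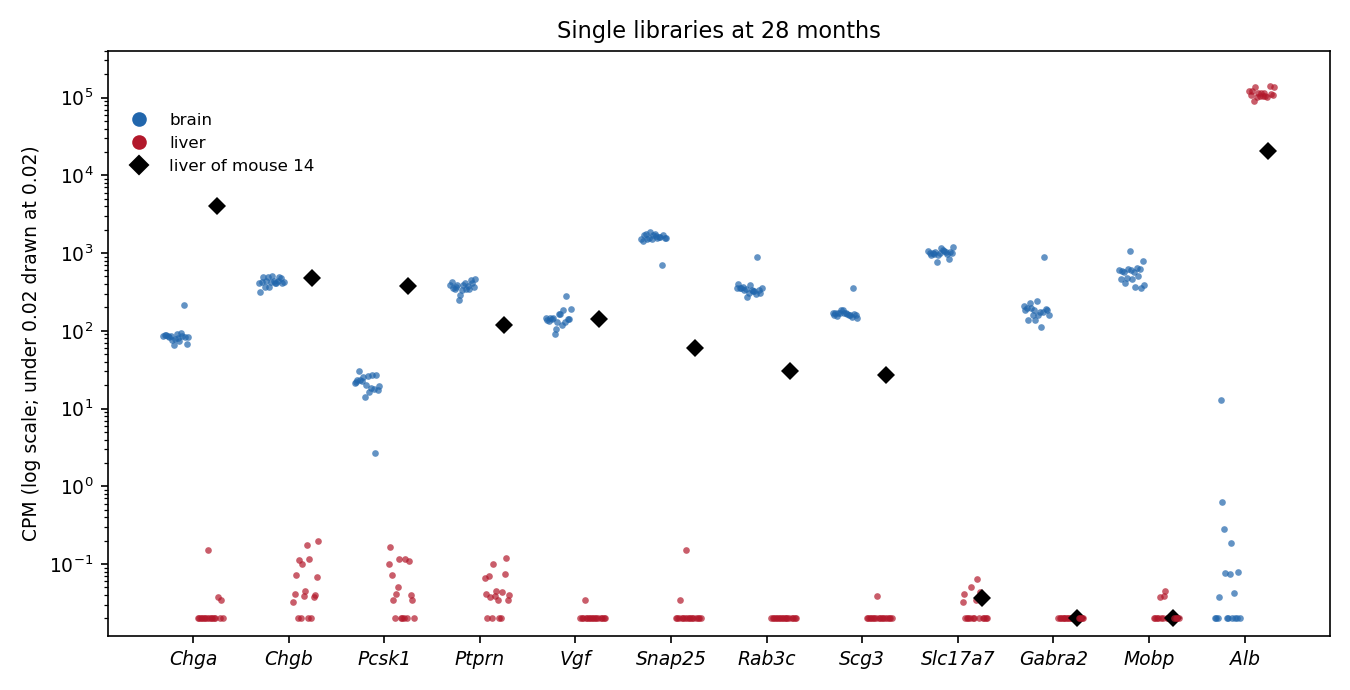
Levels in single libraries at 28 months (vertical log axis, CPM, values under 0.02 drawn at 0.02) for 12 genes, with 18 brains in blue, livers in red and the liver of mouse 14 as a black diamond. For Chga that liver lies at 4006 CPM, above every brain, whereas for Slc17a7, Gabra2 and Mobp it lies with the other livers and for Alb it is the lowest liver, at 20739 CPM.

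Nearly every gene measured differed between the organs. In a paired model with mouse and organ as terms (edgeR's quasi-likelihood test, Benjamini-Hochberg adjusted p under 0.05), 16533 of 18368 genes tested were called, or 90.0%. Of these, 8002 genes (43.6% of those tested) were higher in brain and 8531 (46.4%) were higher in liver. These shares are the background for every list below. The share of all genes without overlap between the organs is not given here. With calls so common the size of a difference carries more than its sign: 4594 genes (25.0%) were called and at least 4-fold higher in brain, and 3508 (19.1%) were called and at least 4-fold higher in liver.

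Where the difference is small, its sign depends on how libraries are scaled. The median log2 fold change of all genes, brain minus liver, was -0.09 with TMM factors, 0.19 with RLE factors and 0.91 with library totals, and brain held 48.4%, 54.6% and 70% of the calls. Folds below are on the TMM scale, so a value is to be read against these shifts. Without mouse 15, the median was 0.12 and the counts were 9009 higher in brain and 8074 higher in liver. Fitted in preparations 1, 2 and 3 alone, 8336, 8173 and 6286 genes were higher in brain and 7307, 7213 and 6795 higher in liver.

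Genes of neurons and synapses were higher in brain without exception. All 24 genes of the neuronal and synaptic list were called higher in brain, each at least 4-fold, with a median log2 difference of 8.75, where 43.6% of all genes tested were higher in brain. Slc17a7, the transporter that loads glutamate into synaptic vesicles, had 773, 1003 and 1180 CPM in brain and at most 0.0648 CPM in liver. Every liver was at the floor, so its level was at least 8407-fold higher in brain. Nefl, a neurofilament subunit, had 226, 338 and 409 CPM in brain and at most 0.0699 CPM in liver (at least 2819-fold; 32.8% of its exon bases lie opposite Nefm exons). Slc32a1, the vesicular transporter of the inhibitory transmitters GABA and glycine, had a brain median of 47.8 CPM and a liver maximum of 0.0381 CPM (at least 397-fold). No liver reached any brain for these genes.

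Receptors for neurotransmitters had the largest fitted median of the lists higher in brain. Of 19 tested, 18 were called higher in brain with a median of 13.00 on the log2 scale. Chrna4, a nicotinic acetylcholine receptor subunit, was not called. In the liver of mouse 14, 11 of the 19 were at the floor. A fold over livers at the floor depends on the prior count, so the rank of this median is not a measured size. The subunits Gabra2 and Gabrb2 of the GABA-A receptor had no count in any of the 18 livers. In brain their lowest, median and highest values were 113, 184 and 890 CPM for Gabra2 and 1.57, 57.3 and 73.6 CPM for Gabrb2. The lowest value of Gabrb2 and the highest of Gabra2 were those of mouse 15. Grin2a, a subunit of the NMDA glutamate receptor, had a brain median of 226 CPM and at most 0.0733 CPM in liver. Chrna4 was expressed in both organs, at 17.1, 20.3 and 36.2 CPM in brain and at 0.653, 26.7 and 144 CPM in liver, and the groups overlapped.

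Glial genes were also brain genes, with named exceptions. All 15 genes of myelin and oligodendrocytes were called higher in brain (median log2 difference 8.17). Mobp, a myelin structural protein, had 360, 570 and 1077 CPM in brain and at most 0.0451 CPM in liver (at least 4730-fold), and Mog, a myelin surface protein, had a brain median of 28.6 CPM (at least 259-fold). The oligodendrocyte factors Sox10 and Olig2 had brain medians of 32.9 and 16.1 CPM and liver libraries all at the floor. Among 15 astrocyte genes, 13 were higher in brain. Mlc1, an astrocyte membrane protein, and Gjb6, a gap junction protein, had brain medians of 119 and 45.8 CPM and no count in any liver. S100b, a calcium-binding protein, had 69.5, 82.2 and 307 CPM in brain and at most 2.53 CPM in liver.

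The astrocyte exceptions were folate and glutamine enzymes that hepatocytes also use. Aldh1l1, an enzyme of folate metabolism, had 25.1, 31.1 and 121 CPM in brain and 1131, 1710 and 2305 CPM in liver, a log2 difference of -5.71 (SE 0.13, adjusted p = 2.0e-20). Glul, glutamine synthetase, had overlapping values (brain median 1185 CPM, liver median 1566 CPM). Its log2 difference of -0.32 (SE 0.10, adjusted p = 0.00397) changed sign with library totals, with a filter of 1 CPM in both organs and in preparations 1 and 2 fitted alone. Its call was lost without mouse 15 (-0.10) and with RLE scaling (-0.04).

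Microglial genes separated the organs less than neuronal and myelin genes. Of 11, 8 were higher in brain and 2 in liver, beside 43.6% and 46.4% of all genes, and 1 was not called. The median log2 difference was 1.87. Siglech and Tmem119, surface proteins of microglia, had brain medians of 12.2 and 20.1 CPM and liver medians of 0.382 and 1.76 CPM. Csf1r, the receptor for colony stimulating factor on macrophages, was higher in liver (brain 66.4, 81.7 and 110 CPM, liver 133, 254 and 686 CPM). Sall1, a transcription factor of microglia, was also higher in liver, with a log2 difference of -1.56 (SE 0.15) and a median of 65.4 against 22.9 CPM.

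Genes of the choroid plexus and ependyma, which line the ventricles, varied widely among brains. Their sum ran from 39.4 to 3733 CPM over the 18 brains, with a median of 90 CPM. Of the 10, 8 were higher in brain, among them Kl (klotho), with 5.13, 16.7 and 111 CPM in brain, and Otx2, with 0.248, 1.07 and 14.8 CPM. Ttr, which carries thyroxine and retinol-binding protein and is made by both the choroid plexus and hepatocytes, had 16.7, 55.4 and 3454 CPM in brain and 1033, 5807 and 8003 CPM in liver. The brains of mice 12 (3454 CPM) and 14 (1932 CPM) lay above the lowest liver. The part of choroid plexus in other brain results was not tested.

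Transcription and splicing regulators split along the same line. Of 18 neural transcription factors, 17 were higher in brain (median log2 difference 11.47), and the cortical factors Neurod6 and Neurod2 had brain medians of 131 and 103 CPM with no count in any liver. Rest, the repressor of neuronal genes in other tissues, was the exception, with 0.331, 6.04 and 8.35 CPM in brain and 23.4, 32.2 and 36.8 CPM in liver (log2 difference -2.47, SE 0.17). Of 20 splicing and RNA-binding regulators, 16 were higher in brain. Elavl3, a neuronal RNA-binding protein, had a brain median of 177 CPM and all livers at the floor, and Rbfox1, a neuronal splicing factor, had a brain median of 170 CPM against at most 0.396 CPM in liver.

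The splicing factors higher in liver were Ptbp1, Ptbp3 and Esrp2. Esrp2, an epithelial splicing regulator, had 105, 141 and 186 CPM in liver and at most 0.314 CPM in brain. Ptbp1, which represses neuronal exons, and its neuronal relative Ptbp2 went opposite ways. Per kb of exon, Ptbp1 had 5.3 ± 0.971 CPM in brain and 35.6 ± 2.97 CPM in liver, and Ptbp2 had 8.8 ± 2 CPM in brain and 2.45 ± 0.485 CPM in liver (SD, n = 18 each). Liver values of Ptbp1 lay above all brain values, while mouse 15 alone had more Ptbp2 in liver than in brain.

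In the liver, plasma proteins dominated. All 25 genes of the plasma protein list were called higher in liver, each at least 4-fold, with a median log2 difference of -14.97, where 46.4% of all genes tested were higher in liver. Together they summed to 172129, 302421 and 351467 CPM in liver. After Alb, the most abundant liver genes were Trf, Apoe, mt-Co1, C3, Hpx, Apoa1 and Ahsg. Trf, the iron carrier transferrin, had 24854, 32797 and 41759 CPM in liver and 121, 181 and 306 CPM in brain (63.5% of its exon bases also belong to the readthrough model Gm20425). Apoe, the lipid carrier that astrocytes make as well, was high in both organs (brain 746, 1190 and 4136 CPM, liver 12523, 23465 and 27468 CPM), and the groups did not overlap.

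Several liver proteins were at or near 0 in brain. Ahsg, fetuin A, had a liver median of 12202 CPM and a brain median of 0.0145 CPM, Gc, the vitamin D carrier, had 7493 and 0 CPM, and Serpina3k, a protease inhibitor, had 6006 and 0 CPM. The liver genes with the largest folds among those with at least 1 CPM in both organs included C3, Apoc1, Gsta3, Itih2, Lrg1, Rbp4 and Tdo2. C3, the central complement protein, had 1.52, 2.97 and 6.76 CPM in brain and 12882, 18762 and 29895 CPM in liver (log2 difference -12.68, SE 0.25, adjusted p = 1.4e-21). Tdo2, which opens the breakdown of tryptophan, had -9.63 (SE 0.23).

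Complement and coagulation genes were liver genes with few exceptions. All 28 complement genes tested were higher in liver (median log2 difference -8.42), where 46.4% of all genes tested were. Mbl1, a mannose-binding lectin, had 101, 178 and 307 CPM in liver and no count in brain (at least 2678-fold), and Cfi, C9 and Mbl2 had liver medians of 1226, 398 and 656 CPM with brain medians of 0. Of 22 coagulation genes, 19 were higher in liver. The fibrinogen chains Fga, Fgb and Fgg had liver medians of 10655, 9816 and 7295 CPM and brain maxima of 1.01, 0.855 and 0.702 CPM. The 3 genes higher in brain were F3 (tissue factor, brain median 36 CPM, liver 3.6 CPM), Plat (tissue plasminogen activator, 23.7 and 1.39 CPM) and Vwf (von Willebrand factor, 21.5 and 12 CPM). Vwf values overlapped between the organs and 16 of 18 mice had more in brain.

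Nitrogen, glucose and bile acid metabolism showed the same division. Of 9 urea cycle genes, 8 were higher in liver: Cps1, which starts the cycle, had 2386, 4717 and 8172 CPM in liver and at most 0.747 CPM in brain, and Otc, the next enzyme, had a liver median of 448 CPM and every brain at the floor (at least 6457-fold). Of 10 genes of gluconeogenesis and glycogen, 9 were higher in liver. Pck1, the cytosolic enzyme that controls gluconeogenesis, had 641, 2740 and 6982 CPM in liver and at most 0.285 CPM in brain, a range of more than 10-fold among livers. G6pc, which frees glucose for release, ranged from 26.6 to 750 CPM in liver. Pck2, the mitochondrial relative of Pck1, was higher in brain (21.4, 30.3 and 111 CPM against 4.76, 7.63 and 13.9 CPM).

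Cholesterol-hydroxylating enzymes differed by organ. Cyp7a1, the rate-limiting enzyme of bile acid synthesis, had 54.4, 162 and 408 CPM in liver and at most 0.0219 CPM in brain (at least 2872-fold). Cyp46a1, which makes the 24-hydroxycholesterol that leaves the brain, had 67, 89.9 and 257 CPM in brain and 1.87, 3.96 and 10.4 CPM in liver. It was the single member of 17 bile acid genes called higher in brain (log2 difference 4.34, SE 0.20). Slc10a1, the hepatocyte uptake carrier for bile acids, had a liver median of 794 CPM and at most 0.0877 CPM in brain.

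All 22 genes of amino acid breakdown were higher in liver (median -11.28), among them Agxt, Hpd, Uroc1 and Tat with liver medians of 412, 2170, 681 and 1340 CPM. Of 17 cytochrome P450 genes, 16 were higher in liver and 1, Cyp4x1, was higher in brain (12.1 CPM in brain, 0 CPM in liver as medians). Without mouse 15, and likewise with RLE scaling, 15 were called higher in liver. Cyp3a11, which oxidises many drugs, had 1258, 3411 and 6133 CPM in liver and at most 0.592 CPM in brain. The counting of reads shared by the close relatives in the Cyp2c and Cyp3a families is not given in the sources used here, so single members are uncertain. All 16 hepatic transcription factors were higher in liver. Hnf4a, a nuclear receptor of hepatocytes, had 568, 833 and 1179 CPM in liver, with every brain at the floor (at least 12392-fold).

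**Figure D2:**
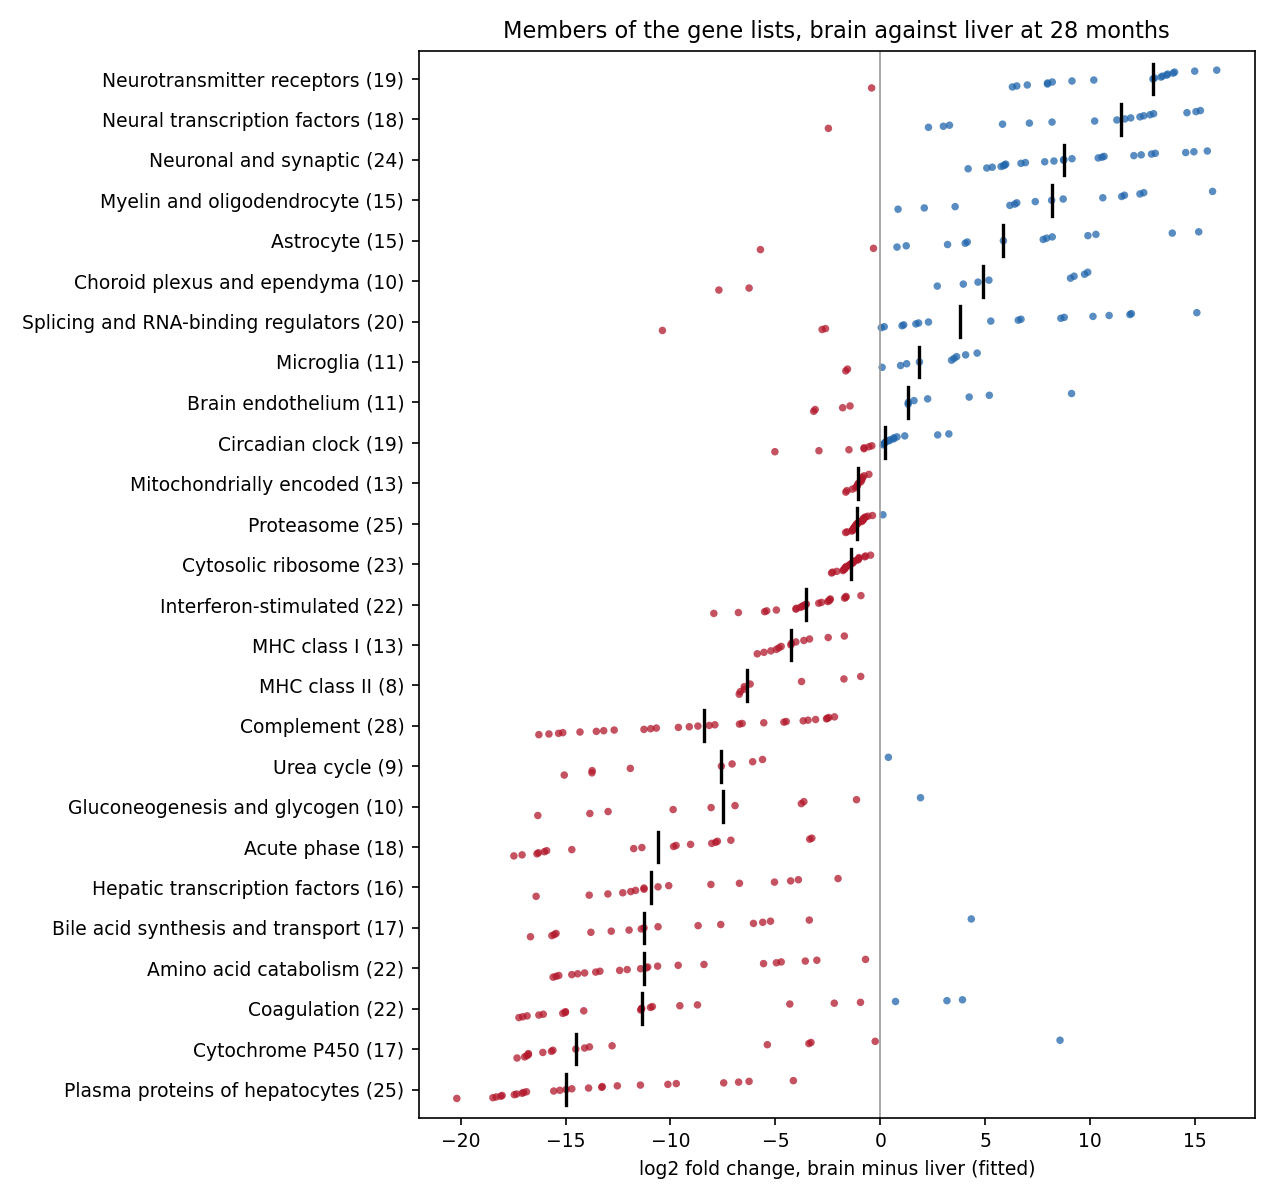
Fitted log2 fold change, brain minus liver, of each member tested of 26 gene lists (points, blue above 0 and red below, with no mark for calls) with the list's median as a black bar and the number tested in parentheses. The medians run from 13.00 for neurotransmitter receptors to -14.97 for plasma proteins, and the mitochondrially encoded, proteasome and ribosome lists lie near -1. Folds of genes at or near 0 in either organ depend on the prior count.

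A set of genes was found in 1 organ alone, defined as at least 1 count per 1 M reads of the unscaled library total in each of its 18 libraries and at most 3 counts in each of the 18 of the other organ. There were 585 such genes in brain, 461 of them protein-coding, and 231 in liver, 152 of them protein-coding. Without mouse 14 the brain set held 772 genes, without mouse 15 it held 707 and without both 918, while the liver set held 238, 234 and 241. The most abundant brain genes of this kind were Ddn, Slc17a7, Mobp and Camkv. Ddn, dendrin of postsynaptic sites, had 588, 1777 and 2626 CPM in brain (at least 14212-fold). The most abundant in liver were Orm1, Hnf4a, Apcs and Cpn2. Orm1, the acute-phase orosomucoid, had 894, 2115 and 7053 CPM in liver (at least 35697-fold), and Apcs, serum amyloid P, had 174, 775 and 1928 CPM (at least 11193-fold).

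The brain genes with the largest folds among those averaging at least 1 CPM in both organs all owed their liver mean to mouse 14. They were Snap25, Rab3c, Ptprn, Chgb, Scg3, Vgf, Rimbp2 and Tmod2, which encode proteins of synapses, secretory granules or, for Tmod2, the neuronal actin cytoskeleton. In the other 17 livers their highest values ran from 0 CPM (Rab3c) to 0.464 CPM (Tmod2). For Snap25 the log2 difference was 14.95 (SE 0.79, adjusted p = 5.5e-14) with all mice and 16.71 (adjusted p = 5.9e-22) without mouse 14. The same rule applied without that mouse, an addition made after seeing the data, named genes that included Meg3, Cpe, Bc1, Nrgn, Kif5c and Nptxr. Kif5c, a neuronal kinesin, had 606, 654 and 714 CPM in brain and 0.186, 1.09 and 4.55 CPM in liver.

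Noncoding RNAs were among the brain transcripts of highest mean level. Bc1, a small neuronal cytoplasmic RNA, ranged from 81.3 to 58957 CPM over the 18 brains, and the highest value came from mouse 15, whose levels were raised for short genes. The brain median of Bc1 was 776 CPM, against 1.5 CPM in liver. That median lay below the one of Snap25 (1585 CPM), so the high mean of Bc1 owes much to mouse 15. Meg3, a long imprinted RNA, had 1950, 3127 and 3894 CPM in brain, and in liver a median of 1.89 CPM with 303 CPM in mouse 14. The mitochondrial ribosomal RNAs mt-Rnr1 and mt-Rnr2 were higher in brain (log2 differences 2.22 and 2.16, SE 0.10 and 0.11).

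Related enzymes of one reaction were compared between the organs, and some families split while others were higher in one organ or near level in both. Levels in the next paragraphs are CPM per kb of exon as mean ± SD over 18 mice, which allows genes to be set beside each other. In glycolysis, the aldolases Aldoa and Aldoc had 450 ± 76.1 and 212 ± 37.6 in brain and 60.4 ± 12.5 and 12 ± 2.41 in liver. Hexokinase 1 (Hk1) had 33.5 ± 2.52 in brain and 1.74 ± 0.646 in liver. The pyruvate kinases Pkm and Pklr had 171 ± 57.1 and 0.0181 ± 0.0145 in brain and 18.9 ± 10.4 and 57.5 ± 31.9 in liver. None of these 5 genes overlapped between the organs in CPM, where 90.0% of all genes tested were called.

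Both lactate dehydrogenase subunits were expressed in both organs, in opposite order. Ldhb had 136 ± 39.1 in brain and 2.46 ± 0.448 in liver, a log2 difference of 5.77 (SE 0.13), and Ldha had 43.8 ± 4.74 in brain and 328 ± 51.1 in liver, a log2 difference of -2.90 (SE 0.07). Enolase differed: Eno2, the neuronal form, had 136 ± 35.6 in brain and 0.0962 ± 0.0779 in liver, while Eno1 had 87.1 ± 8.71 and 90.8 ± 13. Eno1 was not called (log2 difference -0.05, SE 0.07, adjusted p = 0.482), and its sign was positive with RLE factors and with library totals. All 3 phosphofructokinase genes (Pfkm, Pfkp and Pfkl) were higher in brain, with log2 differences of 3.33, 3.73 and 1.51.

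Glycogen enzymes were split too. The phosphorylases Pygb and Pygl had 38.1 ± 2.23 and 0.486 ± 0.0702 in brain and 3.86 ± 1.44 and 59.5 ± 12.5 in liver. The synthases Gys1 and Gys2 had 2.71 ± 0.267 and 0.0437 ± 0.0267 in brain and 1.28 ± 0.677 and 44.2 ± 14.8 in liver. Gys1 values overlapped between the organs, whereas those of the other 3 genes did not.

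For nitrogen and methyl groups, Gls2, the liver-type glutaminase, had 3.25 ± 0.719 in brain and 132 ± 38.2 in liver. Mat1a, which makes S-adenosylmethionine in hepatocytes, had 0.0603 ± 0.0567 in brain and 2013 ± 666 in liver. Its relative Mat2a was near level (32.9 ± 3.4 and 27.9 ± 4.06, log2 difference 0.24, SE 0.06, adjusted p = 0.000918), with overlapping values.

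Fatty acid handling followed the same pattern. Cpt1a, the gate of mitochondrial fatty acid oxidation, had 2.76 ± 0.702 in brain and 54.3 ± 14.9 in liver, and the brain form Cpt1c had 17.9 ± 7.74 and 0.237 ± 0.0905. Fabp1, the liver fatty acid binding protein, had 0.0305 ± 0.121 in brain and 2020 ± 1041 in liver. Its brain SD lay far above its brain mean, so few brain libraries carried that mean. Fabp3 had 37 ± 13 in brain and 0.0348 ± 0.0462 in liver. Fabp5 was higher in liver on the TMM scale (log2 difference -0.70, SE 0.22, adjusted p = 0.00623) and higher in brain by 0.30 with library totals, and Fabp7 was not called. Of the acyl-CoA synthetases, Acsl6 and Acsbg1 were brain genes (log2 differences 10.18 and 6.33) and Acsl1 and Acsl5 were liver genes (-4.50 and -3.74).

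Transporters and channels complete the families. The glucose transporters Slc2a1 and Slc2a3 had 19.9 ± 3.07 and 13.1 ± 2.16 in brain and 6.59 ± 1.53 and 0.509 ± 0.316 in liver, and Slc2a2, the liver transporter, had 0.00982 ± 0.00817 and 61.8 ± 21.9. The connexins Gjb1 and Gjb2 of hepatocyte gap junctions had 430 ± 60.3 and 170 ± 47.6 in liver, and Gja1 and Gjb6 of astrocytes had 16 ± 2.08 and 18.9 ± 6.37 in brain.

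The cytochrome oxidase forms were mostly shared. Cox8a was not called (adjusted p = 0.0511), nor was Cox6a1 (0.183), and the log2 difference of Cox4i1 was -0.34 (SE 0.15, adjusted p = 0.036) with TMM and 0.66 with library totals. The alternative forms Cox4i2 and Cox6a2 were low in both organs and higher in brain (log2 differences 2.38 and 4.89). Creatine kinase was a brain enzyme, with Ckb at 276 ± 206 and the mitochondrial Ckmt1 at 51.3 ± 10.4 in brain against 8.72 ± 3.66 and 0.124 ± 0.355 in liver. The liver mean of Ckmt1 rests on mouse 14, with 3.85 CPM there and at most 0.2 CPM in the other livers. Cpt1b, Ckm and Cox8b did not pass the filter on low counts and were not tested.

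**Figure D3:**
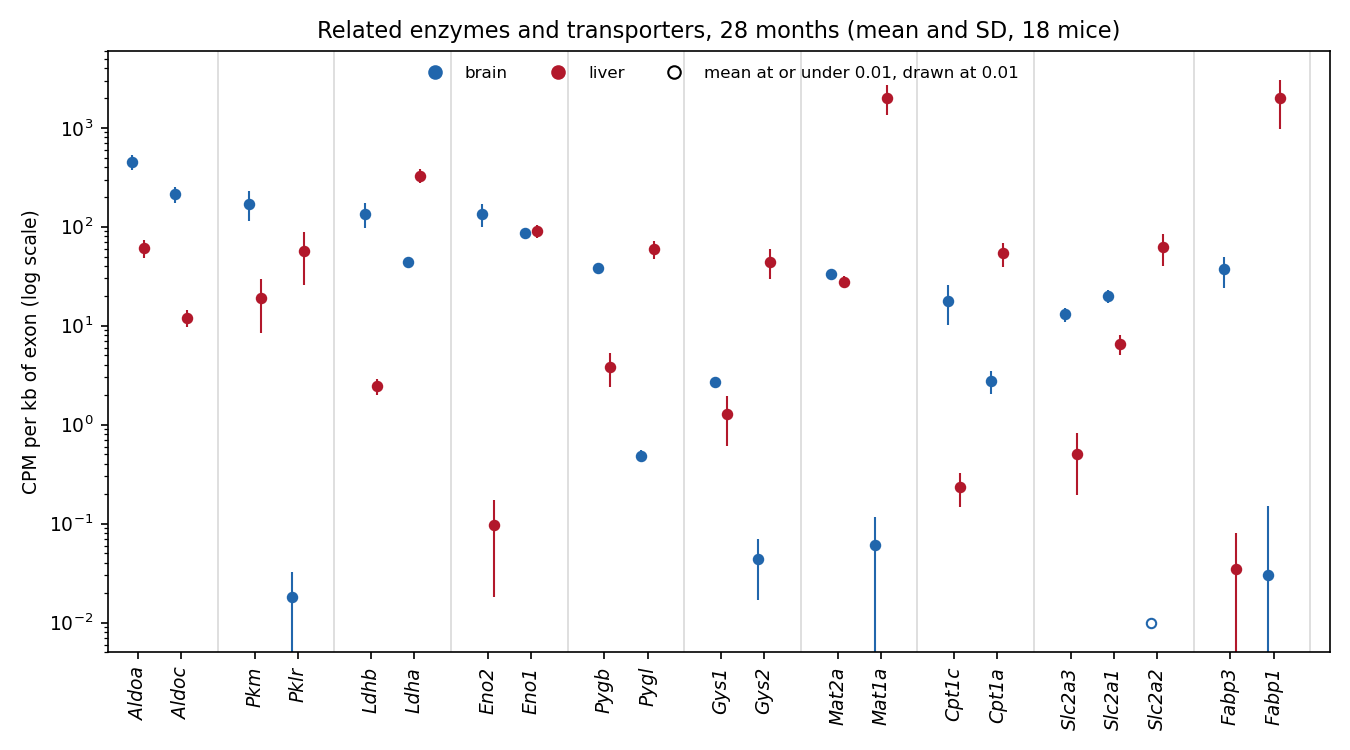
Mean ± SD over 18 mice of CPM per kb of exon (vertical log axis) for 21 members of 10 gene families, brain in blue and liver in red, grouped by family, with means at or under 0.01 drawn as open circles at 0.01. In families such as the pyruvate kinases one member is high in brain (Pkm, 171 and 18.9) and another in liver (Pklr, 0.0181 and 57.5), whereas Eno1 and Mat2a lie close together in both.

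Promoters are shown for 2 genes higher in liver, Alb and Fabp1, and 2 higher in brain, Syt1 and Aldoc. The sequences come from RefSeq on GRCm38.p6 and run from 250 bases before to 50 bases after the start annotated there. They are written 5′ to 3′ on the gene's own strand. For Alb that start lies before the gene start given above, which comes from GENCODE M21. Capitals mark matches, on either strand, to TATAAA (the TATA box), GGGCGG (a GC box), CCAAT (the CCAAT box, ATTGG on the other strand), GTTAAT (one arm of the HNF1 motif), CAAAGTCC (an HNF4 half-site pair) and TTGCGCAA (a C/EBP motif). No 2 of the marked matches overlapped. Alb lies at chr5:90460620-90460919 (+), Fabp1 at chr6:71199629-71199928 (+), Syt1, the calcium sensor of synaptic vesicles, at chr10:109010926-109011225 (-) and Aldoc at chr11:78322823-78323122 (+).
Alb: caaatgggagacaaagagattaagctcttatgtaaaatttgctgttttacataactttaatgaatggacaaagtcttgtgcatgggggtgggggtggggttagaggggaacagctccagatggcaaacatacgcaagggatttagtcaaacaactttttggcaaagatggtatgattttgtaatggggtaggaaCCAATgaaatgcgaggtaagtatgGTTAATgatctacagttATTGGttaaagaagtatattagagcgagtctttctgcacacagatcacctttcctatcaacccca
Fabp1: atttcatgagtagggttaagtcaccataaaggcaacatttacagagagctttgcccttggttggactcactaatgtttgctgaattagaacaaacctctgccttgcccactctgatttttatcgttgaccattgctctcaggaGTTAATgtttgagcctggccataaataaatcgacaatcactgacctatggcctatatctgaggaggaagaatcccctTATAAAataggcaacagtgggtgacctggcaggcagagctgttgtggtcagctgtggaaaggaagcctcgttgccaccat
Syt1: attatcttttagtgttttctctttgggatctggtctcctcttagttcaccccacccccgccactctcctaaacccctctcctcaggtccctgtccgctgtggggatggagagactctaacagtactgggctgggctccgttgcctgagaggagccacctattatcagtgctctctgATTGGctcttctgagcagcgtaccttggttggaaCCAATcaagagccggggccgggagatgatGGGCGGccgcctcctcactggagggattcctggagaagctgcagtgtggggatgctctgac
Aldoc: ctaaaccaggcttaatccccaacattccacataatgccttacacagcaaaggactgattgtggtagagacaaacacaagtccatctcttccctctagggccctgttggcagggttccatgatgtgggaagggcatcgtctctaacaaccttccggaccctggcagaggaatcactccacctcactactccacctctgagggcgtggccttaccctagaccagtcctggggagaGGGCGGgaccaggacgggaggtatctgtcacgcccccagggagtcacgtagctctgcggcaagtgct
The liver promoter of Alb held CCAAT at position -56 and, reversed, at -15, with GTTAAT at -32, positions being those of the first base relative to the annotated start. That of Fabp1 held GTTAAT at -107 and TATAAA at -30. The brain promoter of Syt1 held CCAAT reversed at -74 and forward at -40, with GGGCGG at -11, and that of Aldoc held GGGCGG at -17.

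Over all genes with an entry, the shares of promoters with a motif can be set side by side. GGGCGG was in 50.1% of 3978 promoters of genes at least 4-fold higher in brain, in 45.2% of 3208 promoters of genes at least 4-fold higher in liver and in 35.7% of all 32851 promoters. GTTAAT was in 5.08%, 7.42% and 7.1% and CAAAGTCC in 1.18%, 2.87% and 1.42% of the same sets. TATAAA was in 9.38%, 12.7% and 13.6%, CCAAT in 34.4%, 37.9% and 37.4%, and TTGCGCAA in 0.251%, 0.249% and 0.183%. The median number of CpG pairs in a promoter was 14, 9 and 7. These shares are descriptions with no test, and a match is not a site of binding.

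Immune genes were higher in liver throughout 5 lists, where 46.4% of all genes tested were higher in liver. All 13 class I and all 8 class II histocompatibility genes were called higher in liver (medians -4.26 and -6.34), as were all 22 interferon-stimulated genes (-3.55), all 18 acute-phase genes (-10.60) and all 15 genes of immunoglobulins and plasma cells (-5.81). B2m, the light chain of class I molecules, had 64, 74.7 and 121 CPM in brain and 1576, 2420 and 2982 CPM in liver. Cd74, the chaperone of class II molecules, had 1.64, 5.32 and 11.9 CPM in brain and 166, 453 and 1323 CPM in liver. Irf7, a regulator of interferon responses, had 1.82, 2.73 and 10.4 CPM in brain and 57.9, 144 and 354 CPM in liver. Reads shared among class I genes and among immunoglobulin genes make single members of these families uncertain.

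Markers of immune and endothelial cells of the liver went the same way, where 46.4% of all genes tested were higher in liver. All 14 T and cytotoxic cell genes tested, all 13 Kupffer cell genes, all 10 genes of sinusoidal endothelium and all 10 genes of blood immune cells were higher in liver. Clec4f, a receptor of Kupffer cells, had 164, 279 and 901 CPM in liver with every brain at the floor, and Igkc, the kappa light chain, had 0.173, 1.25 and 8.27 CPM in brain and 36, 162 and 797 CPM in liver. Marco, a scavenger receptor, ranged from 5.65 to 1293 CPM among livers. Red cell transcripts were present in both organs: Hbb-bs had 13.4, 52.6 and 236 CPM in brain and 44.4, 153 and 320 CPM in liver, with overlap (log2 difference -1.52, SE 0.25). How far blood left in the organs contributed to the immune lists was not tested.

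Of 11 brain endothelium genes, 7 were higher in brain and 4 in liver, beside 43.6% and 46.4% of all genes called each way. Slco1c1, a thyroxine carrier of the blood-brain barrier, had 12.9, 35.5 and 53.7 CPM in brain and at most 0.245 CPM in liver. Kdr, the VEGF receptor, Cdh5, an endothelial cadherin, Pecam1 and Mfsd2a, a lipid carrier of the barrier that hepatocytes use as well, were higher in liver. Of 14 stellate and mural genes, 12 were higher in liver and Rgs5, a pericyte marker, was higher in brain with overlapping values (log2 difference 0.61, SE 0.11).

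Genes of protein turnover and respiration differed by smaller folds, beside a background of 46.4% of all genes tested higher in liver. All 24 proteasome genes called, of 25, all 23 ribosomal protein genes and all 11 called of 13 mitochondrially encoded genes were higher in liver on the TMM scale, with medians of -1.11, -1.41 and -1.04 log2. With library totals these medians were -0.11, -0.41 and -0.04, with 8, 1 and 0 genes called higher in brain and 8, 15 and 2 higher in liver. The largest differences with TMM were those of Psmd11 (-1.65, SE 0.07), Rplp0 (-2.32, SE 0.14) and mt-Nd6 (-1.64, SE 0.11). The log2 difference of mt-Nd5 was -0.90 with TMM and 0.10 with library totals. Mouse 15, with its raised short genes, had the highest brain value of each of the 23 ribosomal genes, among them Rps18 (601 CPM, brain median 101 CPM, liver 368 to 848 CPM).

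Of 15 growth hormone signalling genes, 12 were higher in liver, beside 46.4% of all genes tested. Igf1, the growth factor released on growth hormone action, had 6.04, 7.65 and 26.2 CPM in brain and 436, 746 and 878 CPM in liver. Igfals, which stabilises Igf1 in blood, had at most 0.218 CPM in brain and a median of 133 CPM in liver. The Igf1 receptor Igf1r was higher in brain (6.46, 54.8 and 71.4 CPM against 4.96, 7.27 and 13.8 CPM). The brain of mouse 15 lay inside the liver range of Igf1r. Igfbp5 was also higher in brain (log2 difference 2.63, SE 0.16). Of 12 genes of senescence and cell cycle arrest, 11 were higher in liver and none in brain, beside 46.4% and 43.6% of all genes. With library totals the counts were 8 in liver and 2 in brain. Cdkn2a, which encodes p16 and p19ARF, had 0.0923, 0.204 and 0.579 CPM in brain and 0.18, 2.16 and 9.95 CPM in liver.

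Of 19 clock genes, 6 were higher in brain, 7 were higher in liver and 6 were not called, beside 43.6% and 46.4% of all genes called each way. Without mouse 15 the counts were 8 and 5, and with library totals they were 14 and 3. Nfil3, a regulator of clock output, was higher in liver (log2 difference -2.92), and Bhlhe41 and Npas2 were higher in brain (3.27 and 2.74). Per1, a core repressor of the clock, had 43.4, 63.8 and 83.7 CPM in brain and 5.07, 44.6 and 130 CPM in liver. The livers spread over the whole brain range and beyond it on both sides.

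Across genes, which organ varied more depended on mouse 15. For the 7009 genes with at least 10 CPM in both organs, the median SD over mice of log2 CPM was 0.267 in brain and 0.218 in liver. Without mouse 15 it was 0.122 in brain and 0.217 in liver, and 91.1% of genes varied more in liver, against 41.3% with that mouse. Genes with at least 10 CPM in both organs were also ranked without mice 14 and 15. Among them, the most variable in liver were Cux2 (0.454, 46.4 and 154 CPM) and the clock output gene Dbp (1.75, 40.6 and 250 CPM). The metallothionein Mt2 came next (5.1, 175 and 665 CPM, with 73.5% of its exon bases opposite Gm45774). The most variable brain gene in this ranking was Ttr, described above, followed by Gm23935 (2.64, 17.4 and 423 CPM) and Lars2 (18.8, 29.9 and 493 CPM). After these came Gm26917 (2.08, 4.65 and 54.8 CPM) and Gm42418 (159, 287 and 2343 CPM). Gm26917 and Gm42418 are known to take up reads of ribosomal RNA, whose part in these values was not tested.

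The difference between the organs was compared with that of young adults in a model of 66 libraries with mouse, organ and organ by age as terms. Of 19535 genes tested, 5762 (29.5%) had a brain-to-liver difference at 28 months unlike that at 3 months: in 1994 (10.2%) it had moved toward brain and in 3768 (19.3%) toward liver. The median change over all genes was -0.09 log2. Without mouse 15 the counts were 3283 toward brain and 3740 toward liver. Fitted within preparations 1, 2 and 3 alone, 767, 2 and 326 genes moved toward brain and 1458, 8 and 977 toward liver, with fewer mice in each fit. Preparation 2, which holds mouse 14, gave the fewest, with 5 mice of 28 months against 6 in preparation 3. The cause was not tested. With organ by preparation as a term they were 1905 and 3701.

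The 8 largest terms toward brain belonged to genes whose liver medians were lower at 28 than at 3 months, several of them known as male-biased in mouse liver. Of 6 major urinary protein genes tested, a family grouped by name, 3 moved toward brain and 0 toward liver, where 10.2% and 19.3% of all genes did. Mup20, a major urinary protein that serves as a male scent signal, had 1685, 2030 and 4707 CPM in 3-month livers and 11.1, 68.7 and 2343 CPM in 28-month livers, with at most 0.109 CPM in any brain. Mup3 fell from a median of 10793 to 590 CPM in liver and Serpina1e, an alpha-1-antitrypsin copy, from 8877 to 847 CPM. Elovl3, a fatty acid elongase, had 330, 797 and 1796 CPM at 3 months and 0.374, 1.41 and 623 CPM at 28 months, so that 1 old liver reached the young range. The organ by age terms were 4.62 (SE 1.09, adjusted p = 0.00272) for Mup20, 4.96 (SE 0.79, adjusted p = 1.0e-05) for Mup3, 5.15 (SE 0.92, adjusted p = 4.7e-05) for Serpina1e and 4.91 (SE 1.38, adjusted p = 0.00676) for Elovl3. The calls of Mup20 and Elovl3 were lost in the fit with no pairing by mouse (terms 5.48 and 6.89), and that of Mup20 also with organ by preparation as a term (4.69).

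The lipid-hydroxylating P450 genes Cyp4a12a and Cyp4a12b, also known from male liver, went the same way. Their liver medians were 437 and 107 CPM at 3 months and 4.26 and 1.55 CPM at 28 months. The call of Cyp4a12a was lost with no pairing by mouse (term 5.91). Sult2a8, a hepatic sulfotransferase, had 811, 1153 and 1611 CPM and then 28.2, 179 and 799 CPM, with no overlap. The last of the 8, Gm13775, lies in the Mup cluster and shares 34.9% of its exon bases with the pseudogene Mup-ps16. Its term was 5.30 (adjusted p = 0.0448) and lost its call without mice 14 and 15 (adjusted p = 0.051), with no filter on low counts, with no pairing by mouse and with organ by preparation as a term. All 8 genes had brain medians under 0.04 CPM at both ages, so the fitted terms depend on the prior count and the levels carry the result. Reads shared within the Mup, Serpina1 and Cyp4a families leave single members uncertain.

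Other genes were at or near 0 in young livers and expressed in old ones. Cyp2b13, a P450 known from female liver, had at most 0.186 CPM in 3-month livers and 3.05, 50.5 and 183 CPM at 28 months. Hao2, a hydroxyacid oxidase, had at most 0.253 CPM and then 1.59, 5.75 and 25.6 CPM. Their terms were -9.78 (SE 1.42, adjusted p = 6.1e-06) and -6.12 (SE 1.49, adjusted p = 0.0205), and the call of Hao2 was lost with no pairing by mouse (-6.06).

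The other 5 genes had higher medians in brain than in liver at both ages. Brsk2, a kinase of neuronal polarity, had 104, 121 and 134 CPM in young brain and 113, 122 and 138 CPM in old brain. In liver it had at most 0.0504 CPM at 3 months and 0.436, 0.865 and 7.11 CPM at 28 months, above every young liver. Lrtm2 had liver medians of 0.0409 and 2.89 CPM, and Cacna1b, a neuronal calcium channel, 0 and 0.344 CPM. Cyp11a1, which starts steroid synthesis, had a median of 0.33 CPM in old liver, with 11.1 and 30.3 CPM in the livers of mice 3 and 4, above every brain. Ncan, the brain proteoglycan neurocan, had a median of 0 CPM in the livers of both ages and a highest value of 3.45 CPM, and its brain median was 170 CPM at 3 months and 120 CPM at 28 months. Its term of -6.31 (SE 2.03, adjusted p = 0.0227) covers both differences, and with DESeq2 it was smaller and not called.

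**Figure D4:**
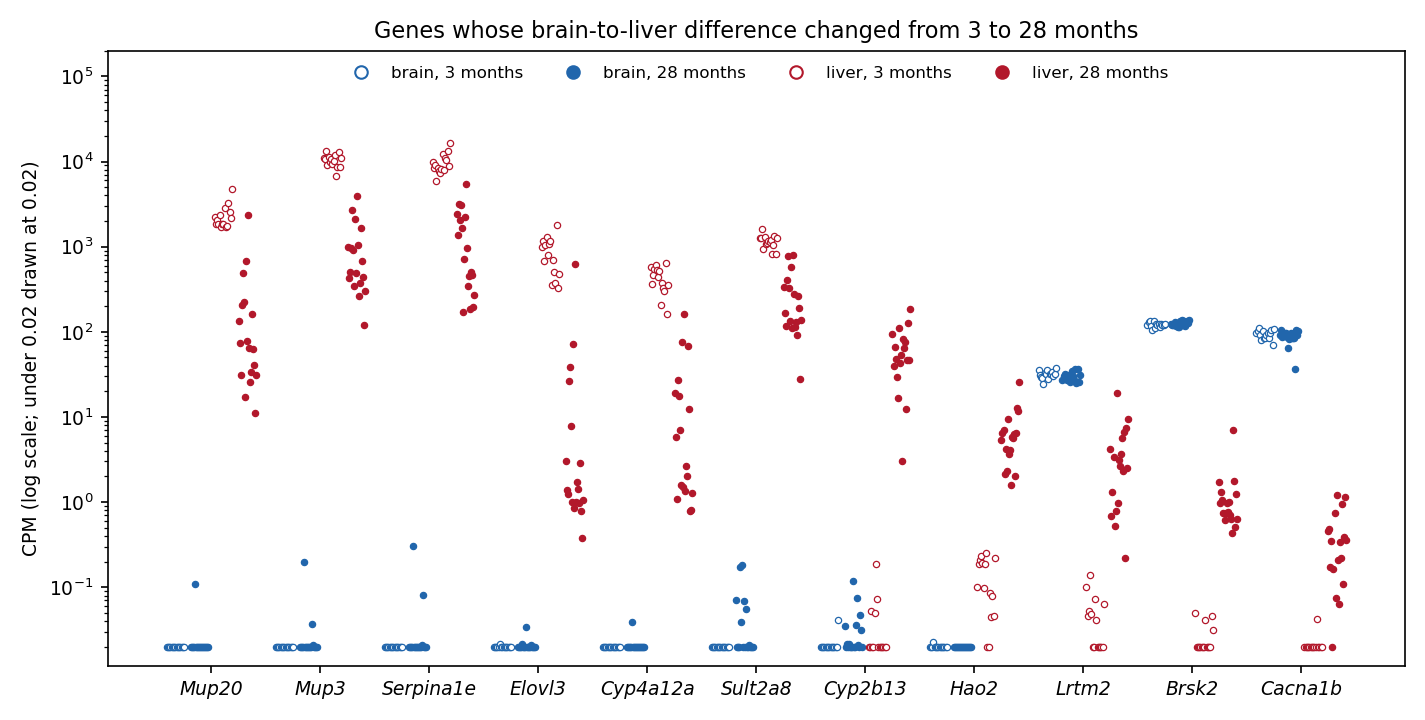
Levels in each library (vertical log axis, CPM, values under 0.02 drawn at 0.02) of 11 genes in brain (blue) and liver (red) at 3 months (open, 15 mice) and 28 months (filled, 18 mice). Liver Cyp2b13 goes from at most 0.186 CPM to between 3.05 and 183 CPM and liver Mup20 from at least 1685 CPM to a median of 68.7 CPM, while brain values of Brsk2 stay between 104 and 138 CPM.

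Lists differed in how many members moved. Of 25 proteasome genes, 22 moved toward brain and none toward liver (median 0.40), where 10.2% of all genes moved toward brain. Psmb7, a catalytic-core subunit, had liver medians of 146 CPM at 3 months and 106 CPM at 28 months and brain medians of 48.7 and 51.6 CPM. Of 8 class II genes, 7 moved toward liver (median -1.43), as did 11 of 15 immunoglobulin and plasma cell genes (median -2.00) and 8 of 11 microglial genes (median -1.18), where 19.3% of all genes did. Of 24 neuronal genes, 10 moved toward liver, 1 moved toward brain and 13 were not called (median -1.13). The old liver of mouse 14 had the highest summed level of this list among the livers of its age (262 CPM), and without mice 14 and 15 the counts were 12 toward liver and 1 toward brain (median -0.84). H2-Eb1, a class II chain, had liver medians of 43.3 and 146 CPM and brain medians of 1.34 and 1.63 CPM. Without mouse 15 the counts were 25 of 25 for the proteasome and 8 of 8 for class II.

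Because each mouse gave both organs, the mice themselves could be compared. Over the 11794 genes with at least 1 CPM in both organs, the correlation across mice of brain and liver levels, with preparation means removed, had a median of 0.00203, and 3.93% of genes had r of 0.5 or more (7.6% without mouse 15). Adjusted over all these genes, 5 passed (permutation test within preparations, 100000 resamples, two-sided), all positive, and they were chosen by this test after the values were seen. At an unadjusted p under 0.05 there were 562 positive and 302 negative genes.

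The highest relations belonged to Y-chromosome pseudogenes that lie near the pseudoautosomal boundary. Mid1-ps1 (Y:90753057-90763485), a copy related to Mid1, had 0, 6 and 12.8 CPM in brain and 0.0372, 9.15 and 19.6 CPM in liver. Across the 18 mice r was 0.95 and rho 0.96 (permutation p = 1.0e-05, the smallest 100000 resamples can give, adjusted p = 0.0393), and r was 0.97 without the 2 mice farthest from the liver median. The same mice, 12 and 15, were lowest in both organs (0.554 and 0 CPM in brain, 0.116 and 0.0372 CPM in liver). Gm21742 (Y:90837413-90844040) had r of 0.99, with 0 CPM in both organs of these mice. Within preparations 1, 2 and 3, r was 0.94, 0.87 and 0.96 for Mid1-ps1 and 0.97, 0.95 and 0.99 for Gm21742. Reads shared with Mid1 and other copies leave the source of these counts uncertain.

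The other 3 genes varied less. Farsb, a subunit of phenylalanyl-tRNA synthetase, had 23.7, 27.9 and 79 CPM in brain and 24.7, 36 and 41.1 CPM in liver. Its r was 0.42 with mouse 15, which held the highest brain value, and 0.84 without it, and rho over all mice was 0.75. Arih2, a ubiquitin ligase, and Gpr89, a Golgi anion channel, had r of 0.78 and 0.67 and lost their calls without mouse 15, with r of 0.81 and 0.74. Without mice 14 and 15, 5 positive relations and 1 negative one passed, with Ick (r of 0.88), Syde2 (0.85) and Sirt3 (-0.85) in place of Arih2 and Gpr89.

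Genes that hormones, the clock, interferon or blood could move in both organs were examined as a list of 40, of which 38 had enough counts. Of these, 27 had a positive r. None passed when adjusted over all 11794 genes. Adjusted over the listed relations, Fkbp5, Sgk1, Igtp and Gbp2 passed, a list drawn up with earlier results of these data known. Without mouse 15, Igtp and Gbp2 did not pass (r of 0.70 and 0.55), and without mice 14 and 15 none of these 4 did, with r of 0.77, 0.61, 0.67 and 0.54. Gbp2 also did not pass with RLE scaling (r of 0.66), nor Sgk1 where preparation means were kept (r of 0.53). Fkbp5, a target of the glucocorticoid receptor, had 30.4, 48.6 and 86.7 CPM in brain and 29.1, 129 and 206 CPM in liver. Its r was 0.79 and rho 0.82 (permutation p = 0.00024, adjusted over all genes p = 0.23), with r of 0.89 and 0.79 in preparations 1 and 3 and 0.64 without the 2 mice farthest from the liver median. Sgk1, another glucocorticoid target, had r of 0.56 (permutation p = 0.00162, adjusted over all genes p = 0.328), and the interferon-inducible GTPases Igtp and Gbp2 had r of 0.73 and 0.67 (adjusted over all genes p = 0.362 and 0.431).

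The clock gene Per3 depended on mouse 15. It had 6.13, 35.3 and 49.4 CPM in brain and 3.77, 22 and 145 CPM in liver, and the lowest brain value was that of mouse 15. With all 18 mice r was -0.08 and rho 0.34, and without mouse 15 r was 0.87 (permutation p = 0.00016, adjusted over all genes p = 0.118). The time of day at which organs were taken is not given in the sources used here. H2-D1, a class I gene, went the other way, with r of 0.69 over all mice, 0.37 without mouse 15 and 0.10 without mice 14 and 15.

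**Figure D5:**
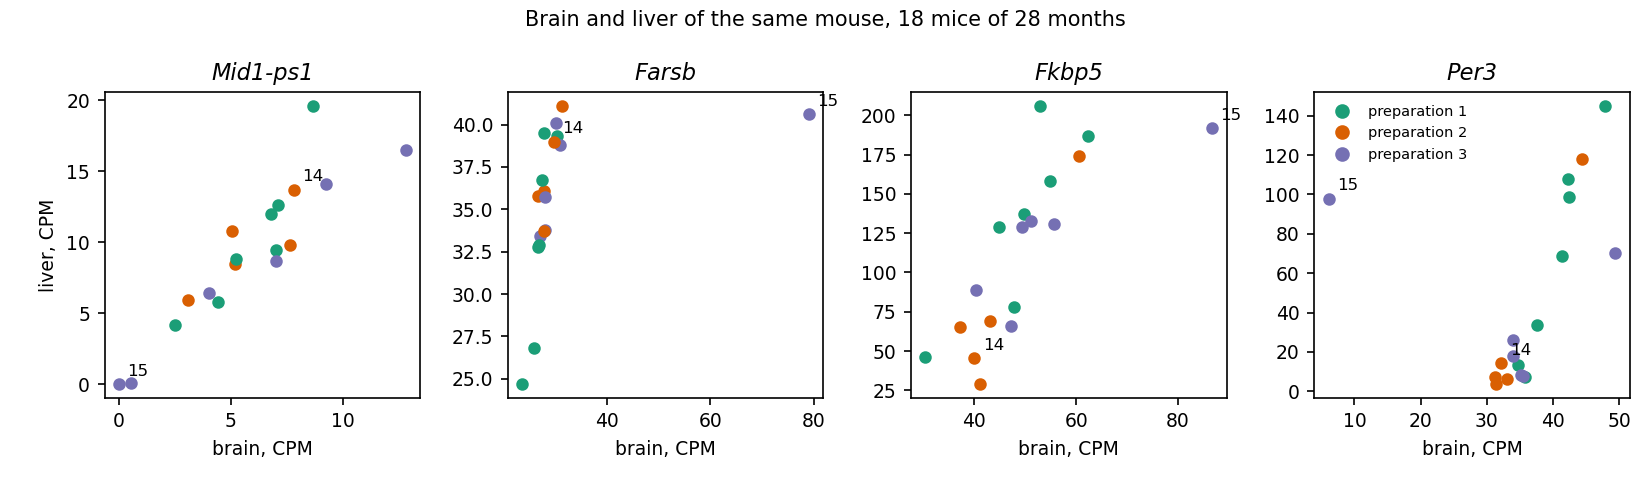
Brain level (horizontal axis, CPM) against liver level (vertical axis, CPM) of the same mouse for 4 genes, 1 point per mouse of 28 months, coloured by preparation, with mice 14 and 15 numbered. Mid1-ps1 rises from mouse 15 near 0 in both organs to mouse 3 at 12.8 CPM in brain and 16.5 CPM in liver. The highest liver value, 19.6 CPM, is that of mouse 4, with 8.65 CPM in brain. Mouse 15 lies off the trend for Farsb and Per3.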

How the data were processed

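Bulk RNA-seq counts of 18 mice of 28 months, each with a brain and a liver library, were taken from the count tables that the authors deposited, in whole reads per gene and without normalization. The submitters' processing notes name cutadapt 2.8, HISAT2 2.1.0, SAMtools 1.9, featureCounts of Subread 2.0.1 and the builds GRCm38.p6 and mm10. Use of strand in counting, the annotation release and the treatment of shared reads are not given in the sources used here. Symbols, exon lengths and overlaps come from GENCODE M21, which named 55144 of 55471 genes.

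Genes were kept with filterByExpr by organ (minimum count 10) and scaled by TMM. They were tested in edgeR 4.0.16 (R 4.3.3) by the quasi-likelihood test with mouse and organ as terms. Fitted folds used the default prior count of edgeR, and a prior count of 2 entered only the log2 CPM values. Adjusted p-values are Benjamini-Hochberg values over all genes tested. The change from 3 to 28 months was an organ by age term in 66 libraries. A mouse's brain and liver carry the same name in the deposited tables, and this pairs the libraries; the deviations of paired organs from their group means correlated with a median of 0.0518 (-0.114 to 0.333). Relations across mice used 100000 permutations within preparations, two-sided, in NumPy 2.4.6. Alternatives were RLE, upper quartile and library-total scaling, other filters, DESeq2 1.42.0, limma 3.58.1 voom, a 2-fold threshold, no pairing, single preparations and left-out mice. Total counts of 11.46 M or more reads per library set the precision at low levels. The steps were also run on simulated counts with an organ difference in few genes. Most real genes differ, so that run cannot judge the scaling used here.

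Genes named were the 8 largest differences each way among genes of at least 1 CPM in both organs with 1 direction in all 3 preparations, the 8 most abundant per organ, up to 4 members per list and those against its direction, isozyme family members, the 8 largest organ by age terms each way and the 4 most abundant genes of 1 organ alone. Members of large sets are given in part, and some genes the rule names are not reported here. The comparison, its members and the lists were chosen with earlier results of these data known.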

Additional observations from a re-analysis of the deposited data

Results flagged for a closer look

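In 15 genes the brain-to-liver difference at 28 months differed from that at 3 months by the organ by age term (edgeR's quasi-likelihood test, Benjamini-Hochberg adjusted p under 0.05), and they were among the largest terms each way. Toward brain, the log2 terms were 5.58 for Cyp4a12b, 5.30 for Gm13775, 5.15 for Serpina1e, 4.99 for Sult2a8, 4.96 for Mup3, 4.91 for Elovl3, 4.87 for Cyp4a12a and 4.62 for Mup20. Toward liver, they were -9.78 for Cyp2b13, -6.31 for Ncan, -6.20 for Lrtm2, -6.12 for Hao2, -6.08 for Brsk2, -6.05 for Cacna1b and -5.94 for Cyp11a1. In each of the 15, at least 1 organ was at or near 0 CPM at some age, so the size of the term depends on the prior count.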

How the results depend on the processing

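Against 8002 genes higher in brain and 8531 higher in liver, no filter on low counts gave 12703 genes higher in brain, 8117 of them at least 4-fold, and a filter of 1 CPM in both organs gave 5283 and 4973, with 1609 and 1410 at least 4-fold. Library totals gave 4997 genes higher in liver and a test against a 2-fold difference 5262. Leaving out each mouse in turn gave 7927 to 9009 genes higher in brain and 8074 to 8538 higher in liver, with 4592 to 4887 and 3298 to 3535 at least 4-fold. With no replicate block, in place of the pairing by mouse, 8013 and 8504 genes were called, and for the change from 3 months 2448 and 4323. That fit ended the calls of Cyp4a12a (5.91), Elovl3 (6.89), Gm13775 (5.54), Hao2 (-6.06) and Mup20 (5.48). For the same change, single preparations gave 767, 2 and 326 genes toward brain and 1458, 8 and 977 toward liver, in fits of fewer mice, and leaving out mouse 15 gave 3283 toward brain. A floor of 10 counts gave 961 genes in brain alone and 406 in liver alone, and leaving out mice 14 and 15, chosen after seeing the data, gave 918 in brain alone. Leaving out mouse 14 or 15 gave 707 to 772 and 234 to 238. Of the listed relations across mice, 4 passed, 8 without removing preparation means, Sgk1 not among them, 4 without mouse 15, where Isg15 and Per3 took the place of Igtp and Gbp2, and 1, Per3, without mice 14 and 15, and over all genes 5 passed, 3 without mouse 15 and 6 without mice 14 and 15. Signs turned with library totals for mt-Nd5 (0.10), Glul (0.68), Hk2 (0.22), Eno1 (0.94), Fabp5 (0.30), Fabp7 (0.69), Cox4i1 (0.66) and Cox6a1 (0.77). With a filter of 1 CPM they turned for Glul (0.05), Eno1 (0.31) and Cox4i1 (0.02), and in preparations 1 and 2 alone for Glul (0.01 and 0.02). Eno1 was also positive with RLE (0.22), with DESeq2 (0.22) and without mice 14 and 15 (0.16), and r of Per3 was 0.87 without mouse 15 and 0.88 without mice 14 and 15. The cause was not tested. Of the fold changes of named genes under all alternatives, 7898 kept their sign and call, 73 lost and 26 gained a call and 16 changed sign. Of the organ by age terms, 110 kept their sign and call and 40 lost the call, most of these in single preparations. Depth limits genes at the floor of 3 counts, whose folds are lower bounds for counting error only.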
